A study of Homo sapiens with 5 samples.

Results

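JMJD3 (KDM6B) is a demethylase that removes the repressive methyl marks H3K27me3 and H3K27me2 from histone H3. It has no known DNA-binding domain and is assumed to be brought to chromatin by other proteins. p53 is a transcription factor that is stabilised by DNA damage and binds its own response elements. The sites described here are the narrow JMJD3 binding sites of untreated BJ fibroblasts that were listed again after ionizing radiation (IR). The sites were chosen by their JMJD3 values in both lists: a site was taken when it was under 400 bp wide in the untreated list and shared at least 1 bp with a JMJD3 site of the irradiated list. This held for 3162 of the 4717 untreated JMJD3 sites, which are called narrow kept sites below.

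BJ cells are human diploid foreskin fibroblasts, immortalized here with hTERT, the catalytic subunit of telomerase, and untreated and irradiated cells all carry it. Binding was mapped by ChIP-seq with a rabbit antibody to JMJD3 or the DO-1 antibody to p53, either in untreated cells or after 10 Gy of IR. Harvest was 6 h after IR per the labels and 5 h in the text of the study. There was 1 library for each antibody and condition, so differences between untreated and irradiated cells could not be set against a spread of replicates and were not tested. All intervals in parentheses are exact 95% intervals, which cover counting error over sites only, and neighbouring sites are not independent of each other.

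The lists hold only positions, with no height, score or read number, so sequencing depth is unknown. The untreated JMJD3 list has 4717 sites and the irradiated list 35133. The smallest width was 200 bp in the untreated JMJD3 list and in both p53 lists, and 125 bp in the irradiated JMJD3 list. A longer list with a lower smallest width gives more chances of overlap, and its part in the values below was not tested. Genes are not named, since no annotation of hg18, the assembly of the lists, was used here.

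The share of sites listed again after IR was lower for narrow sites than for wide ones. Of the 3764 untreated JMJD3 sites under 400 bp, 3162 were kept (84.0%, 82.8 to 85.2%), and 602 were not listed after IR. Of the 953 sites of 400 bp or more, 933 were kept (97.9%, 96.8 to 98.7%). Over all untreated sites the share kept was 86.8%. Being kept and being narrow are what chose the sites, so these shares are a description.

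Within the narrow sites the share kept rose with width. At exactly 200 bp, the smallest width of the list, 340 of 535 sites were kept (63.6%, 59.3 to 67.6%). From 201 to 219 bp the number was 528 of 639 (82.6%, 79.5 to 85.5%). From 220 to 259 bp it was 844 of 993 (85.0%, 82.6 to 87.2%). The largest step was therefore the one off the smallest width. From 300 to 349 bp 482 of 520 sites were kept (92.7%, 90.1 to 94.8%). From 350 to 399 bp 336 of 354 were kept (94.9%, 92.1 to 97.0%), next to 533 of 551 (96.7%, 94.9 to 98.1%) from 400 to 599 bp.

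**Figure D1:**
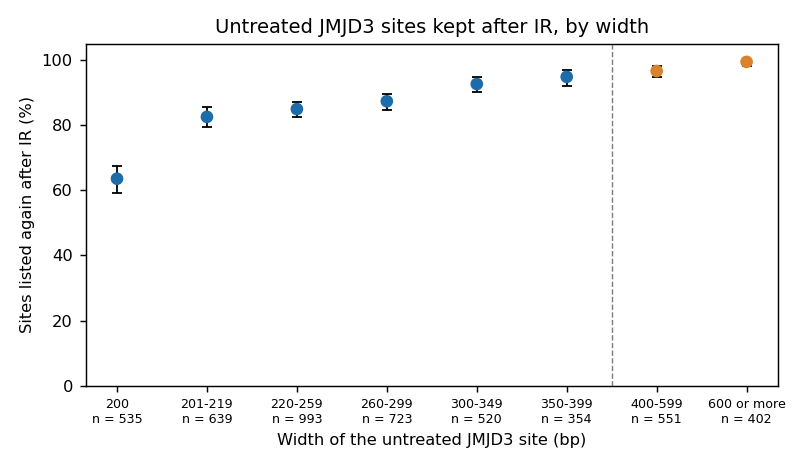
Share of untreated JMJD3 sites listed again after IR (y axis, percent) in 8 groups of untreated width (x axis, bp, with the number of sites), with exact 95% intervals as bars. Blue points are narrow groups and orange points wide groups, and the dashed line marks the limit of 400 bp. The share rises from 63.6% at exactly 200 bp to 94.9% at 350 to 399 bp.

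The kept sites just inside the limit were both 399 bp wide. The site on chromosome 9 from 114844871 to 114845269 was 618 bp wide after IR, and the site on chromosome 9 from 126573442 to 126573840 was 420 bp wide. Just outside, the site on chromosome 19 from 41729990 to 41730389 was 400 bp wide and became 161 bp. The site on chromosome 1 from 40278087 to 40278487 was 401 bp wide and became 510 bp.

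Most narrow kept sites were wider after IR. Each was paired with the irradiated site sharing most bases with it. The untreated width was 200 to 399 bp with a median of 252 bp. The paired site after IR was 125 to 6844 bp wide with a median of 330 bp, and 50% of the values lay between 234 and 459 bp. The median of the width ratio, IR over untreated, was 1.26 (1.24 to 1.29), and the median gain was 68.5 bp. After IR 2207 of the 3162 sites were wider (69.8%, 68.2 to 71.4%), 944 were narrower and 11 had the same width. Over all 4095 kept sites, narrow and wide, 67.5% were wider.

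The change was modest at most sites and large at few. At 1113 narrow kept sites (35.2%, 33.5 to 36.9%) the width was at least 1.5 times the untreated width, against 33.0% of all kept sites. At 296 sites (9.36%, 8.37 to 10.4%) it was at most 1/1.5 times, against 11.6% of all kept sites. The other 1753 sites lay between these limits. A ratio of at least 2 was seen at 581 sites (18.4%, against 17.9% of all kept sites). A ratio of at least 5 was seen at 73 sites (2.31%, against 2.37% of all kept sites). After IR 1093 narrow kept sites (34.6%, 32.9 to 36.3%) measured 400 bp or more and would no longer count as narrow. At the other end 505 sites (16.0%, 14.7 to 17.3%) were under 200 bp after IR, a width that the untreated list does not contain.

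Choosing sites for a small untreated width favours a ratio above 1, so the ratio was also taken in the opposite direction. The 2535 irradiated sites under 400 bp that overlapped an untreated site had a median ratio of untreated over IR width of 1.06 (1.04 to 1.08). Sites that were narrow in either list thus had, by the median, the wider partner in the other list. Without irradiated sites under 200 bp the median was 0.923 (0.905 to 0.938) over 1860 sites, but no untreated site is under 200 bp, so each site left out there was wider in untreated cells by construction. Over all 4178 irradiated sites that overlapped an untreated site, of any width, the median ratio of untreated over IR width was 0.872 (0.858 to 0.889). The wide kept sites had a median ratio, IR over untreated, of 1.10 (1.05 to 1.13), below that of the narrow ones. Inside the narrow sites the median ratio was 1.29 (1.23 to 1.38) at exactly 200 bp. From 201 bp on it fell from each width group to the next. It was 1.38 (1.33 to 1.44) from 201 to 219 bp, 1.29 from 220 to 259 bp and 1.24 from 260 to 299 bp. From 300 to 349 bp it was 1.20, and from 350 to 399 bp 1.15 (1.11 to 1.21). The intervals of adjacent width groups overlap.

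**Figure D2:**
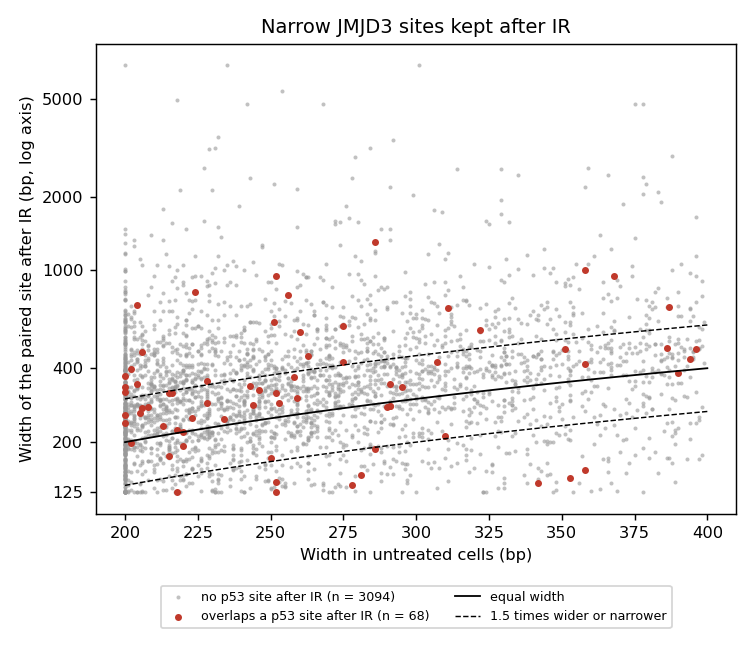
Width of each of the 3162 narrow kept sites in untreated cells (x axis, bp) against that of its paired site after IR (y axis, bp, log axis). Red points overlap a p53 site after IR and grey points do not, the solid line is equal width and the dashed lines mark ratios of 1.5 and 1/1.5. Most points lie above the line of equal width, with 1113 above the upper dashed line and 296 below the lower one.

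The median shift was outward at either border and of similar size. The left border is the one with the lower coordinate, and a positive shift is outward. The median was 33.5 bp (30.0 to 36.0 bp) at the left and 32.0 bp (28.0 to 36.0 bp) at the right. At the left 80% of the shifts lay between -80.9 and 236 bp, and at the right between -81.0 and 227 bp. The outward tail was longer than the inward one on either side. The intervals of both sides overlap, but both borders belong to the same sites, and the difference between the sides was not tested.

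Both borders moved outward at 1294 of the 3162 sites (40.9%, 39.2 to 42.7%) and both inward at 322 (10.2%, 9.15 to 11.3%). At 1508 sites (47.7%, 45.9 to 49.4%) 1 border moved outward and the other inward, so that both moved the same way along the chromosome. These were split into 757 sites with the left border outward and 751 with the right border outward. The remaining 38 sites kept at least 1 border at the same base. At the wide kept sites both borders moved outward at 35.3% (32.2 to 38.4%) and both inward at 17.8% (15.4 to 20.4%), and over all 4095 kept sites at 39.6% and 11.9%. Both shifts add up to the width change and the rule used the untreated width, so choosing narrow sites favours outward shifts and these shares are a description only.

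The distance between the untreated and the irradiated centre had a median of 47.0 bp (45.0 to 49.5 bp), and 2361 sites (74.7%, 73.1 to 76.2%) had it within 100 bp. For the wide kept sites the median was 108 bp (94.5 to 118 bp). The sites had to overlap, so their widths limit these distances, and a narrow site allows less than a wide one. Both borders lay within 50 bp of their untreated place at 665 narrow kept sites (21.0%, 19.6 to 22.5%). The irradiated site covered the whole untreated site at 1319 sites (41.7%, 40.0 to 43.5%), against 40.3% of all kept sites. It lay wholly inside the untreated site, borders included, at 335 sites (10.6%, 9.54 to 11.7%), against 12.3% of all kept sites.

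**Figure D3:**
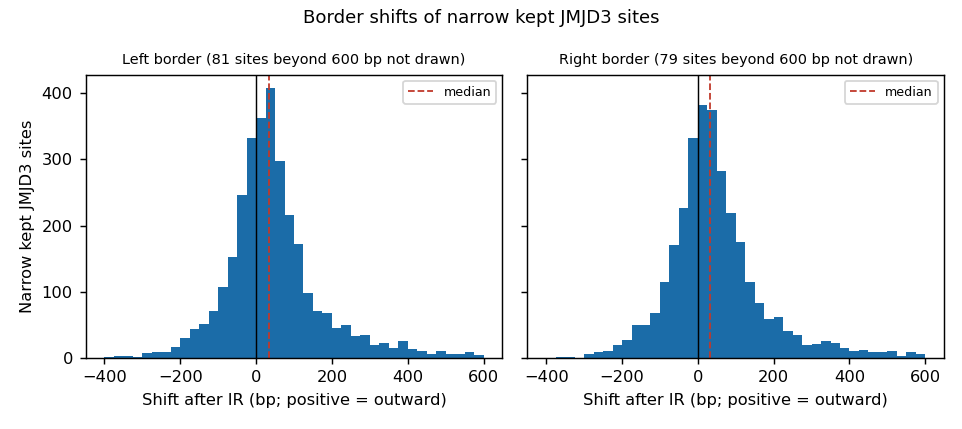
Number of narrow kept sites (y axis) by the shift of their left and right border after IR (x axis, bp, positive is outward), in steps of 25 bp. The solid line marks no shift and the dashed line the median, 33.5 bp at the left and 32.0 bp at the right. Shifts over 600 bp, at 81 left and 79 right borders, are not drawn.

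The largest gains in width, 5 times or more, were found mostly where neighbouring untreated sites lay in 1 irradiated site. Of the narrow kept sites 2784 (88.0%, 86.9 to 89.2%) were paired 1 to 1 with an irradiated site. Their median ratio was 1.23 (1.21 to 1.25), their largest 8.37, and 8 of them reached a ratio of 5. A further 266 sites shared their irradiated site with at least 1 other untreated site. These had a median ratio of 3.10 (2.83 to 3.42), and 65 of them reached a ratio of 5. Smaller gains were mostly those of 1 to 1 pairs, which made up 357 of the 581 sites with a ratio of at least 2 and 858 of the 1113 with at least 1.5. Sites that shared their irradiated site made up 218 and 243. The 177 shared irradiated sites were a median of 875 bp wide. At 6 of the 266 sites the shared irradiated site was narrower than the untreated one, and 1 shared base was enough to count as an overlap. An irradiated site that spans several untreated sites is wider than each of them by construction.

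The reverse, 1 narrow site with 2 irradiated sites, was seen at 128 places (4.05%, 3.39 to 4.79%). Among wide kept sites 215 of 933 (23.0%, 20.4 to 25.9%) had 2 or more. The part of a divided narrow site that shared most bases with it was a median of 0.839 times as wide as the untreated site (0.754 to 0.928). Both sites that follow the smallest ratio in the list were of this kind.

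The 3 narrow kept sites that were widest after IR were also those with the largest ratios, and they lay in 1 irradiated site. It was 6844 bp wide and spanned chromosome 17 from 45617915 to 45624758 (hg18). The narrow sites in it ran from 45620212 to 45620446 (235 bp), from 45622156 to 45622456 (301 bp) and from 45623087 to 45623286 (200 bp). Their ratios were 29.1, 22.7 and 34.2. The irradiated site took in 8 untreated sites, of which 3 were narrow, and 83.5% of its length was already covered by JMJD3 sites before IR. The ratios of 22.7 and more therefore stand beside a stretch that was mostly listed before irradiation.

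The 3 smallest ratios belonged to sites of 360 to 378 bp. The site on chromosome 15 from 78929079 to 78929456 was 378 bp wide and its irradiated site, from 78929361 to 78929485, was 125 bp wide, a ratio of 0.331. Its left border moved inward by 282 bp and its right border outward by 29 bp, so that the irradiated site lay over the right end of the untreated one. The site on chromosome 17 from 77802404 to 77802772 went from 369 to 127 bp, and the site on chromosome 21 from 27133034 to 27133393 from 360 to 127 bp. Each of these last sites was paired with the larger of 2 irradiated sites by shared bases.

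Narrow kept sites had more JMJD3 neighbours in the irradiated list than in the untreated list. Neighbours are other JMJD3 sites with a gap of at most 10 kb, and sites overlapping the narrow site itself were left out. In the untreated list 1404 of the 3162 sites (44.4%, 42.7 to 46.2%) had a neighbour, against 51.0% of all untreated JMJD3 sites. In the irradiated list 2398 (75.8%, 74.3 to 77.3%) had one, against 79.0% of all untreated sites. The mean number was 1.60 before and 4.46 after IR, and the median 0 and 2. The nearest other JMJD3 site was a median of 23.7 kb away (18.9 to 28.5 kb) before and 0.936 kb (0.838 to 1.07 kb) after IR.

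The gain in neighbours was not particular to these sites. More neighbours after IR were listed at 773 of 933 wide kept sites (82.9%, 80.3 to 85.2%) and at 413 of the 602 narrow sites not listed after IR (68.6%, 64.7 to 72.3%). At 2236 narrow kept sites (70.7%, 69.1 to 72.3%) more neighbours were listed after IR, at 872 the number was equal and at 54 (1.71%, 1.29 to 2.22%) it was lower. No neighbour in either list was found at 755 sites (23.9%, 22.4 to 25.4%). A further 1003 sites (31.7%, 30.1 to 33.4%) stood alone before IR and had company after, whereas 9 had a neighbour before IR and none after. Summed over the sites, 14090 neighbours were listed after IR, a neighbour being counted once for each narrow site it lies near. Of these 9719 overlapped no untreated JMJD3 site and 4371 did.

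Wide kept sites had JMJD3 neighbours more often than narrow ones, with intervals that do not overlap in either list. A neighbour before IR was found at 745 of 933 wide kept sites (79.8%, 77.1 to 82.4%), and after IR at 873 (93.6%, 91.8 to 95.1%). The nearest other untreated site was a median of 0.512 kb away (0.415 to 0.591 kb). The narrow sites not listed after IR were closer to the narrow kept ones. Of these 243 of 602 (40.4%, 36.4 to 44.4%) had an untreated neighbour and 439 (72.9%, 69.2 to 76.4%) an irradiated one. Their intervals overlap those of the narrow kept sites in both lists. A number of 5 or more untreated neighbours was found at 371 narrow kept sites (11.7%), 314 wide kept sites (33.7%) and 39 narrow sites not listed after IR (6.48%).

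**Figure D4:**
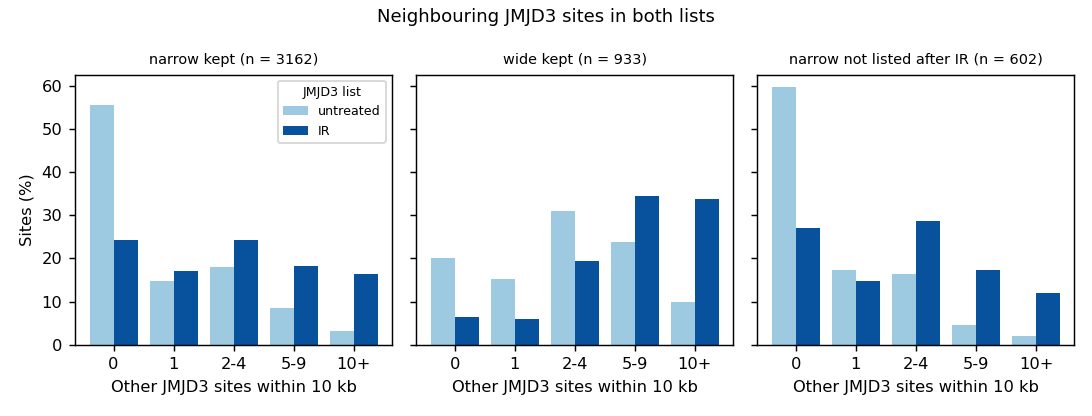
Share of sites (y axis, percent) by the number of other JMJD3 sites within 10 kb (x axis) in the untreated list (light bars) and the irradiated list (dark bars), for narrow kept, wide kept and narrow sites not listed after IR. Among narrow kept sites the class without a neighbour falls from 55.6% to 24.2%, and the class with 10 or more rises from 3.13% to 16.3%.

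The narrow kept sites with most untreated neighbours lay together on chromosome 2. The site from 217256906 to 217257289 (384 bp) had 24 other untreated sites within 10 kb and 14 other irradiated sites, and its own site after IR was 1893 bp wide. The sites from 217253832 to 217254073 (242 bp) and from 217254122 to 217254499 (378 bp) had 23 each before IR and 12 each after, as did the site from 217254551 to 217254818 (268 bp). All 3 lay in an irradiated site of 4741 bp, from 217250951 to 217255691, which took in 8 untreated sites. The number of neighbours was lower after IR here, beside irradiated sites that hold several untreated ones.

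The narrow kept sites with most irradiated neighbours lay on chromosomes 7, 11 and X. On chromosome 7 the site from 93887774 to 93887973 had 7 neighbours before IR and 29 after, and went from 200 to 585 bp. On the same chromosome the site from 93886220 to 93886588 had 7 before and 28 after, and went from 369 to 770 bp. On chromosome X the site from 153243296 to 153243505 had 10 before and 29 after, and went from 210 to 452 bp. In all 2 narrow kept sites had 29 irradiated neighbours and 5 had 28, the others being 1 more on chromosome 7, 2 on chromosome 11 and 1 on chromosome X. The 3 described here were over 2 times as wide after IR, but the irradiated site of 585 bp also took in another untreated site.

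The median width ratio was higher in crowded stretches, whereas among sites paired 1 to 1 the medians lay close together. The median ratio was 1.21 (1.19 to 1.24) at the 1758 narrow kept sites without an untreated neighbour, 1.34 (1.29 to 1.39) at the 1033 with 1 to 4, and 1.62 (1.41 to 1.77) at the 371 with 5 or more. Among sites paired 1 to 1 alone, an alternative added after seeing the data, the medians were 1.22 (1.20 to 1.24), 1.25 (1.19 to 1.30) and 1.26 (1.11 to 1.35), and the intervals overlap. Among these 1 to 1 pairs the share with a ratio of at least 1.5 was 27.7% (25.6 to 29.9%) without a neighbour, 35.5% (32.2 to 38.8%) with 1 to 4 and 37.2% (30.9 to 43.9%) with 5 or more. The share that was wider at all ran the other way, at 70.6% (68.4 to 72.8%), 66.4% (63.1 to 69.6%) and 62.3% (55.6 to 68.7%). The share with a ratio of at most 1/1.5 was 7.66%, 11.5% and 11.7%.

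The p53 lists were not used to choose the sites. Of the 3162 narrow kept sites 68 (2.15%, 1.67 to 2.72%) overlapped a p53 site of irradiated cells by at least 1 bp. The share over all untreated JMJD3 sites was 1.84%, and over all JMJD3 sites after IR it was 2.02%, so the narrow kept sites lay near both. Over JMJD3 sites after IR of at least 200 bp it was 2.58% (2.34 to 2.84%). Of the wide kept sites 15 of 933 overlapped p53 (1.61%, 0.903 to 2.64%), and of the narrow sites not listed after IR 4 of 602 (0.664%, 0.181 to 1.69%). The interval of the narrow kept sites overlaps that of each other group, but barely that of the narrow sites not listed after IR. Differences between these groups were not tested. A p53 site within 10 kb was found at 237 narrow kept sites (7.50%, 6.60 to 8.47%), 68 wide kept sites (7.29%, 5.70 to 9.15%) and 32 narrow sites not listed after IR (5.32%, 3.66 to 7.42%).

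The share at p53 was lower among narrow kept sites with untreated JMJD3 neighbours than among those without. Without an untreated JMJD3 neighbour, 54 of 1758 narrow kept sites overlapped p53 (3.07%, 2.32 to 3.99%). With 1 to 4 neighbours 13 of 1033 did (1.26%, 0.672 to 2.14%), and with 5 or more 1 of 371 (0.270%, 0.00682 to 1.49%). The first interval overlaps neither of the others. Among wide kept sites the values ran in the same order, 6 of 188 (3.19%, 1.18 to 6.82%), 8 of 431 (1.86%, 0.805 to 3.62%) and 1 of 314 (0.318%, 0.00806 to 1.76%), but with intervals that overlap. By irradiated neighbours the share was 20 of 764 narrow kept sites without one (2.62%, 1.61 to 4.01%), 40 of 1304 with 1 to 4 (3.07%, 2.2 to 4.15%), 5 of 579 with 5 to 9 (0.864%, 0.281 to 2.0%) and 3 of 515 with 10 or more (0.583%, 0.12 to 1.69%). Here the sites without a neighbour were not the highest. These groups were chosen after the data had been seen. By untreated width the share among narrow kept sites ran from 1.04% (5 of 482) at 300 to 349 bp to 3.27% (11 of 336) at 350 to 399 bp, in no steady order.

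Counted from the p53 side, the 68 narrow kept sites at p53 mostly stood alone in the untreated JMJD3 list. An untreated neighbour within 10 kb was found at 14 of them (20.6%, 11.7 to 32.1%), against 1390 of the 3094 others (44.9%, 43.2 to 46.7%), and these intervals do not overlap. The nearest other untreated JMJD3 site was a median of 83.1 kb away (33.0 to 168 kb), against 22.1 kb (17.3 to 27.0 kb). After IR the shares with a neighbour were 48 of 68 (70.6%, 58.3 to 81.0%) and 2350 of 3094 (76.0%, 74.4 to 77.5%), and here the intervals overlap. At 34 of the 68 sites a neighbour was listed only after IR, at 20 in neither list and at 14 in both. Crowded stretches give many sites to the group away from p53, and sites of 1 stretch are not independent.

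**Figure D5:**
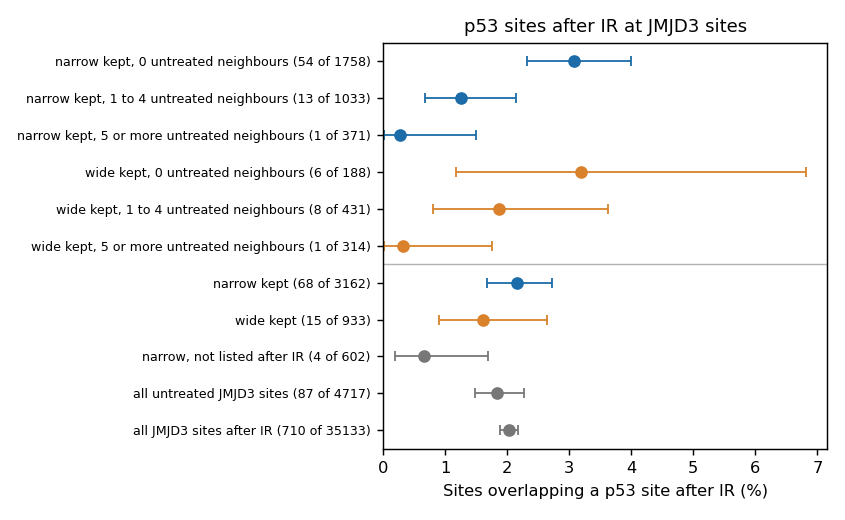
Share of JMJD3 sites that overlap a p53 site of irradiated cells (x axis, percent) with exact 95% intervals, for the groups named at the left with their numbers of sites. Blue points are narrow kept sites, orange points wide kept sites and grey points other sets. The narrow kept sites without an untreated neighbour are at 3.07%, those with 5 or more at 0.270%.

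No difference in width change between sites at p53 and the others was detectable with 68 sites. The 68 sites had a median untreated width of 252 bp and a median width after IR of 318 bp, with a range after IR of 125 to 1311 bp. Their median ratio was 1.27 (1.15 to 1.39), against 1.26 (1.24 to 1.29) at the other narrow kept sites. After IR 49 of the 68 were wider (72.1%, 59.9 to 82.3%) and 19 narrower. A ratio of at least 1.5 was reached by 22 (32.4%, 21.5 to 44.8%), against 35.3% (33.6 to 37.0%) of the others. Of the 68 sites 67 were paired 1 to 1 with an irradiated site.

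The p53 sites of irradiated cells were set against the JMJD3 sites of either list. The 68 sites overlapped 68 different p53 sites, of which 65 were listed for p53 only after IR and 3 also in untreated cells. The distance from the centre of the p53 site was a median of 57.8 bp for the untreated JMJD3 site and 54.2 bp for the irradiated one. It was smaller after IR at 37 sites and larger at 31. Both sites are narrow and had to overlap, which keeps these distances short. The p53 sites had a median width of 278 bp, next to 288 bp for all 3232 p53 sites after IR. The irradiated JMJD3 site overlapped p53 at all 68 places, and at 5 further narrow kept sites it reached a p53 site that the untreated site did not.

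The 3 narrow kept sites at p53 that were widest after IR lay on chromosomes 2, 7 and 5. On chromosome 2 the untreated site ran from 192269276 to 192269561 (286 bp) and the irradiated site from 192268243 to 192269553 (1311 bp), with p53 from 192269199 to 192269550. It shared its irradiated site with 1 other untreated site, grew by 1033 bp at the left and ended 8 bp earlier at the right. On chromosome 7 the site from 22865117 to 22865474 (358 bp) became 1004 bp, from 22864808 to 22865811, with p53 from 22865226 to 22865510. On chromosome 5 the site from 64813216 to 64813583 (368 bp) became 951 bp, from 64812896 to 64813846, with p53 from 64813355 to 64813653. In the latter cases the borders moved outward by 263 to 337 bp on each side, and the p53 site lay inside the widened JMJD3 site.

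At 3 narrow kept sites p53 was listed both before and after IR. On chromosome 1 the JMJD3 site from 9164870 to 9165073 went from 204 to 726 bp, inside a p53 site of 1331 bp after IR, from 9164038 to 9165368. On chromosome 4 the site from 140384068 to 140384310 went from 243 to 338 bp, overlapping p53 from 140384024 to 140384430. On chromosome 14 the site from 50931950 to 50932224 went from 275 to 425 bp, overlapping p53 from 50931753 to 50932246. None of the 3 had another untreated JMJD3 site within 10 kb, and they had 3, 1 and 2 irradiated neighbours. All 3 were wider after IR, with ratios of 3.56, 1.39 and 1.55.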

How the data were processed

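Tags had been mapped by the authors to hg18 using Bowtie 0.12.7, with unique alignments kept, and the authors called peaks in each library with MACS2 against an IgG control. The threshold is not given in the sources used here. The deposited lists have 3 columns, holding positions of sites. The only IgG library of the series came from untreated cells and was not analysed here.

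Width is end minus start, and printed starts count from 1. Overlaps and gaps were computed with numpy 2.4.6 and pandas 2.3.3 in Python 3.11.15 and tested on simulated data. bedtools 2.31.1 gave the same 3162 narrow kept sites and 68 at p53. Intervals are exact binomial (Clopper-Pearson) for shares and order-statistic for medians (scipy 1.17.1). Figures were drawn with matplotlib 3.10.9.

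Sites named by position are the extremes, at most 3 each, of irradiated width, width ratio and neighbour numbers; the 3 widest after IR at p53; those with p53 in both lists; and 2 sites on each side of 400 bp. The limits, groups and comparisons were chosen with earlier results of these data known. Alternatives changed the overlap rule, the width limit, the pairing, the neighbour distance, the smallest irradiated width and the chromosomes counted.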

Additional observations from a re-analysis of the deposited data

How the results depend on the processing

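None of the 67 alternatives below turned a direction. The width gain did turn for sites under 400 bp taken from the irradiated list, with a median ratio of untreated over IR width of 1.06. The untreated list holds no site under 200 bp, so irradiated sites under 200 bp raise that ratio by construction. For irradiated sites of 200 bp or more and under 400 bp the gain did not turn (0.923). Nor did it over all irradiated sites that overlapped an untreated site (0.872). Of the 67 comparisons of 9 results with an alternative, 37 stayed within the counting interval (for the number of sites, within 1.5 times) and 30 moved beyond it. Autosomes alone moved none of the 9. With 50% of the width covered, 75.4% of narrow sites were kept, the median ratio was 1.30 and 74.7% were wider. With the centre inside the other site these values were 76.2%, 1.30 and 73.9%. When a gap of up to 1 kb counted as overlap, 91.3% were kept and 2.91% lay at p53. With irradiated sites of at least 200 bp only, 71.1% were kept, the median ratio was 1.37, 83.0% were wider, both border shifts were 43.0 bp and 62.8% had an irradiated neighbour. Fewer and wider irradiated sites enter there by construction. With narrow meaning under 300 bp, 81.1% were kept, the median ratio was 1.30, 71.9% were wider, 41.3% had an untreated and 73.4% an irradiated neighbour. With narrow meaning under 500 bp, 46.9% had an untreated neighbour. For sites paired 1 to 1 the median ratio was 1.23. With the outermost borders of all overlapping sites it was 1.30, 72.2% were wider and the left border shift was 37.0 bp. Untreated and irradiated neighbours were found at 39.6% and 68.0% within 5 kb, at 48.7% and 82.4% within 20 kb, and at 33.0% and 61.2% after merging sites within 1 kb. For the sites at p53, alternatives chosen after seeing the data gave 16.2 to 23.5% with an untreated neighbour. The cause of the other moves was not tested. No paired analysis was possible because there was 1 library for either condition. The unknown depth limits every comparison between the lists.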

Other observations

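Narrow kept sites were found on every chromosome, with 247 on chromosome 1 and 1 on chromosome Y. Among chromosomes with at least 100 narrow untreated sites, the share kept ran from 76.0% (152 of 200, 69.5 to 81.7%) on chromosome 6 to 88.4% (137 of 155, 82.3 to 93.0%) on chromosome 15. The interval of chromosome 6 does not reach the 84.0% found over all chromosomes, and 24 chromosomes were looked at. The share of narrow kept sites with an untreated neighbour within 10 kb was 59.6% of 213 sites on chromosome 19 and 32.4% of 142 sites on chromosome 4. Exact binomial intervals are given, and these values were chosen after the data had been seen.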
